A study of Mus musculus with 9 samples.

Results

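Gluconeogenesis, the making of glucose from lactate, glycerol and amino acids, was followed in the livers of AAV-injected mice through 9 genes: Pcx, Pck1, Pck2, Fbp1, G6pc, Slc37a4, Tat, Sds and Ppargc1a. They were taken by name from the gene names printed in the array files, of which there were 37074. The rule uses no measured value, but the set was chosen with earlier results of these data known. Together they had 13 of the 56605 probe names. A probe counts as detected on an array where the scanner software marked its signal as well above background. By that mark 7 genes, each through 1 probe, were detected on all arrays of at least 1 group and were tested along with 5761 genes in all. Both probes of Pck2 and both of Ppargc1a were detected on 0 of the 9 arrays, and so were the second probes of Slc37a4 and Sds.

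The samples were livers of male C57BL/6N mice, labelled as 12 months old, with 3 arrays in each of 3 groups. AAV-V mice carried an empty adeno-associated virus (AAV) vector and ate a normal diet, AAV-GP73 mice carried AAV with mouse GP73, a Golgi membrane protein, and ate the same diet, and AAV-V HFD mice carried the empty vector and ate a high-fat diet. Every group therefore had been injected with virus, of a kind the study describes as specific to hepatocytes, and no group without AAV and no AAV-GP73 group on HFD was measured. The study's text gives 12 months after injection where the labels give an age of 12 months, and it states the length of the HFD in more than 1 way. It does not say that each array stood for 1 animal, so that the p values may measure a spread that is partly technical. AAV-V and AAV-GP73 arrays shared a slide and a scan. All AAV-V arrays had position number 1 on it and all AAV-GP73 arrays number 2. An effect of position therefore cannot be told apart from one of GP73. The HFD arrays had a slide and a scan of their own, and an effect of the slide cannot be told apart from one of the diet.

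The liver makes glucose between meals and sends it to the blood. Pyruvate carboxylase (Pcx) turns pyruvate into oxaloacetate in the mitochondrion, and phosphoenolpyruvate carboxykinase, cytosolic (Pck1) or mitochondrial (Pck2), turns oxaloacetate into phosphoenolpyruvate. Most following steps run glycolysis backwards with the same enzymes, fructose-1,6-bisphosphatase (Fbp1) bypasses the phosphofructokinase step, and the catalytic subunit of glucose-6-phosphatase (G6pc) frees glucose in the endoplasmic reticulum after Slc37a4 has carried glucose-6-phosphate there. Tyrosine aminotransferase (Tat) and serine dehydratase (Sds) feed amino acid carbon into the route, and Ppargc1a encodes the coactivator PGC-1α. Glucagon, through cAMP, and glucocorticoids raise several of these genes in fasting, and insulin lowers them through FOXO1.

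The promoters of Pck1, Fbp1 and G6pc are printed because of results described below. Fbp1 was the second nearest gene in pattern to Pck1 over the 9 arrays, although Pck1 was not among the 3 nearest to Fbp1. Only G6pc was called different between AAV-GP73 and AAV-V HFD. RefSeq promoters, which run from 250 bases before to 50 after the first transcribed base on GRCm38.p6, matched 8 of the 9 genes, all but Sds. Capitals mark matches to 6 motifs searched on both strands: the full cAMP response element TGACGTCA, its core TGACG (which lies inside the full one), the FoxO element GTAAACA, the glucocorticoid receptor hexamer AGAACA, the nuclear receptor hexamer AGGTCA and the TATA box TATAAA. The Pck1 window (chr2:173152823-173153122, forward strand), the Fbp1 window (chr13:62888233-62888532, reverse strand) and the G6pc window (chr11:101367466-101367765, forward strand) read 5′ to 3′ as follows.
Pck1: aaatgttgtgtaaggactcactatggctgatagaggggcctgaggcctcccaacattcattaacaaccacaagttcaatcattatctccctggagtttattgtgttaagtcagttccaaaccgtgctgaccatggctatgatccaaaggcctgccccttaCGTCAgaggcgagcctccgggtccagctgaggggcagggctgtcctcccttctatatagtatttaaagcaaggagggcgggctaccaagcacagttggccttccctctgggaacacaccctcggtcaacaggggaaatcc
Fbp1: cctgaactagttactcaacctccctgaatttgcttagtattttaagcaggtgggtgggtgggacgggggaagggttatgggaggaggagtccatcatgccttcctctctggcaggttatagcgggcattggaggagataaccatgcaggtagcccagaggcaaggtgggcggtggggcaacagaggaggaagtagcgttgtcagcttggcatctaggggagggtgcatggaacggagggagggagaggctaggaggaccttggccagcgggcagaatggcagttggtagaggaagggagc
G6pc: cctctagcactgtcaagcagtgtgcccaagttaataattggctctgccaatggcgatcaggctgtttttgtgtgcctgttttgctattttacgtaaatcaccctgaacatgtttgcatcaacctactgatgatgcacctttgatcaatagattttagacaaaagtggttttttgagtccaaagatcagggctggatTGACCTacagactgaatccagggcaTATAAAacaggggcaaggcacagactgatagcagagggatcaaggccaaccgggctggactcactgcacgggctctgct
In Pck1 a core cAMP element on the reverse strand covered positions -90 to -86, counted from 0 at the first transcribed base. In G6pc a nuclear receptor hexamer on the reverse strand lay from -54 to -49 and a TATA box from -29 to -24, and the Fbp1 window held none of the 6 motifs. Over all 32851 promoters of full length, 20.8% held the core cAMP element, 1.79% the full one, 3.65% the FoxO element, 19% the glucocorticoid receptor hexamer, 16.3% the nuclear receptor hexamer and 13.6% the TATA box. A match describes letters in this window and is not evidence of a bound factor.

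The arrays differed in brightness before scaling, which touches every fold change given here. Of 59305 spots, 6034 to 6375 were detected on AAV-V arrays, 9501 to 10898 on AAV-GP73 arrays and 8183 to 9930 on AAV-V HFD arrays. Values were therefore shifted on the log2 scale so that the probes detected on all 9 arrays had the same 75th percentile, and this scaled log2 signal is the level given below. With it the middle gene of the 5761 tested had a log2 fold change of 0.60 between AAV-GP73 and AAV-V, 0.37 between AAV-V HFD and AAV-V, and 0.09 between AAV-GP73 and AAV-V HFD. Other scalings moved that median from -0.58 to 2.27, from -0.73 to 1.71 and from -0.01 to 0.42 in the same order. Background probes scaled in this way end lower on the brighter arrays by construction, so that undetected values have no order. Golm1, which encodes GP73, had 1 probe, detected on 0 of the 9 arrays, and does not check the labels. All 7 hepatocyte markers with a probe were detected on every AAV-V and AAV-GP73 array, and 6 of them on every AAV-V HFD array. Their summed scaled signal ranged from 16419 to 25773 on AAV-V arrays, from 16012 to 21736 with GP73 and from 10168 to 15906 with HFD. Of the 5 markers each of cholangiocytes, lymphocytes, adipocytes and kidney tubule, another site of gluconeogenesis, none was detected on all arrays of any group. Of the hepatocyte markers Cps1 was called lower, 3.01-fold in AAV-GP73 and 4.09-fold in AAV-V HFD, and the other 6 were not called in either. Cps1 was detected on only 1 AAV-V HFD array, so its fold there rests in part on background values. In AAV-GP73 endothelial Clec4g and macrophage Clec4f, both undetected in AAV-V, were called higher (adjusted p = 0.00170 and 0.0206). With each AAV-V array at the higher of its own value and its lowest detected signal, Clec4f was at least 1.006-fold higher. The other macrophage markers tested, Lyz2 and Cd5l, were not called (log2 0.85 and -0.16). Endothelial Pecam1, detected on 1 AAV-V array and on 0 AAV-GP73 arrays, was not tested. Of the stellate and fibroblast markers Dcn was 2.30-fold higher and Des 4.41-fold lower in AAV-GP73. Des was also 4.95-fold lower in AAV-V HFD. The summed signal ran from 130 to 143, 151 to 206 and 187 to 202 for 6 macrophage markers in AAV-V, AAV-GP73 and AAV-V HFD, from 146 to 273, 157 to 193 and 81.1 to 129 for 6 stellate and fibroblast markers, and from 23.0 to 31.7, 26.9 to 39.5 and 9.68 to 24.5 for 5 endothelial ones. The part of these cells in the results was not tested. The 3 erythroid markers summed to between 1672 and 8406 in AAV-GP73, against 206 to 474 in AAV-V and 324 to 551 in AAV-V HFD. Of them Hba-a1 was called 14.4-fold higher in AAV-GP73 than in AAV-V, Alas2 was not called (log2 0.75), and Hbb-b1 was not tested. The part of blood in the results was not tested. In whole liver, fewer cells of a type and less RNA per cell cannot be told apart.

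AAV-GP73 livers had higher signals than AAV-V livers for 5 of the 7 gluconeogenesis genes tested, Pck1, Fbp1, Tat, Pcx and G6pc, and a lower one for Slc37a4. A gene was called where the limma fit gave an adjusted p under 0.05 and the fold change was at least 2. That was also true of 52.6% of all genes tested, 33.2% higher and 19.4% lower, and the 6 of 7 called stand against that background. The median log2 fold change of the 7 genes was 1.95, against 0.60 for all genes, and under normexp background correction it was -0.20, against -0.58. The split of all genes called moved with the scaling, from 4374 higher and 84 lower under spike-in scaling to 138 higher and 712 lower under normexp. AAV-V HFD livers had 3 of the 7 genes higher, Pck1, Fbp1 and Pcx, and 0 lower, where 43% of all genes were called, 24.8% higher and 18.2% lower. The median of the 7 was 0.99 there, against 0.37 for all genes, and -0.26 under normexp, against -0.73. The split of all genes called went from 3781 higher and 72 lower under spike-in scaling to 72 higher and 825 lower under normexp. Between AAV-GP73 and AAV-V HFD only G6pc was called, higher in AAV-GP73, where 2.52% of all genes were called, 1.96% higher and 0.555% lower. Both comparisons with AAV-V share the AAV-V arrays. Groups without overlap were common among all genes. All AAV-GP73 arrays lay above all AAV-V arrays for 44.6% of genes and below them for 23.0%. The shares were 33.8% and 23.0% for AAV-V HFD against AAV-V, and 15.2% and 8.73% for AAV-GP73 against AAV-V HFD.

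**Figure D1:**
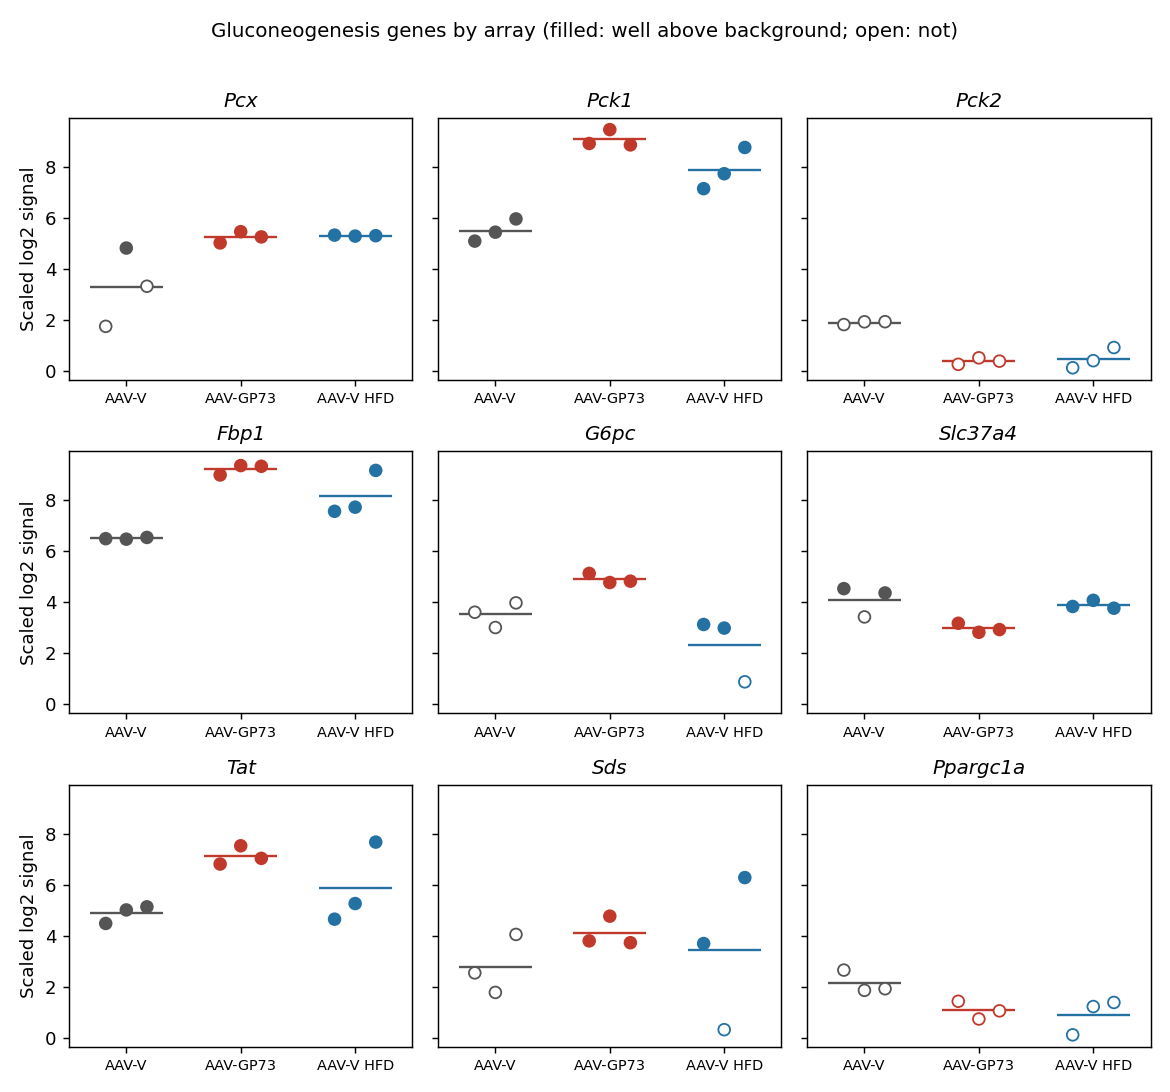
Scaled log2 signal (y axis) of the 9 genes on each of the 3 arrays of AAV-V, AAV-GP73 and AAV-V HFD, with 1 point per array in replicate order and a line at the group mean. Filled points are well above background and open ones are not. Pck1, Fbp1 and Tat are filled on all 9 arrays, and Pck2 and Ppargc1a are open on all 9.

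Pck1, whose enzyme commits oxaloacetate to glucose, had the largest change of the 7 in both comparisons with AAV-V. In AAV-V HFD, however, Pcx passed it under quantile normalization and in the authors' table. Pcx also passed it there when AAV-V replicate 2 or AAV-V HFD replicate 3 was left out. Its probe (mm9, chromosome 2, 172984307 to 172984366) gave scaled log2 signals of 5.08, 5.43 and 5.95 on the AAV-V arrays, 8.91, 9.46 and 8.86 on the AAV-GP73 arrays and 7.14, 7.72 and 8.75 on the AAV-V HFD arrays. The AAV-V arrays were lowest, the AAV-GP73 arrays highest, and no 2 groups overlapped, although only 0.10 separated the highest AAV-V HFD from the lowest AAV-GP73 array. The rise in AAV-GP73 was 12.0-fold (log2 3.59 ± 0.40 SE, adjusted p = 8.10e-05). In AAV-V HFD it was 5.22-fold (log2 2.38 ± 0.40 SE, adjusted p = 0.000914). Under the 7 scalings tried, the log2 fold change for AAV-GP73 ranged from 2.32 to 5.26 and that for AAV-V HFD from 1.27 to 3.72, and Pck1 was called under all 7 in both. Relative to the median of all genes, the AAV-GP73 change stayed between 2.54 and 2.99, at the 96.2 to 99.8 percentile of the genes tested. Between AAV-GP73 and AAV-V HFD the difference was 1.20 (95% interval 0.32 to 2.08), which was not called (adjusted p = 0.161). Without AAV-V HFD replicate 3 it was 1.64 (adjusted p = 0.0477). That array was the highest of its group, so leaving it out could only widen the difference, and the value is a description only.

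Pck2, the mitochondrial isozyme, gave no level to compare. The processed signals of its 2 probes lay between 1.32 and 3.68 on the 9 arrays and were never well above background.

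Fbp1 followed Pck1. The probe (mm9, chromosome 13, 62966175 to 62966234) read 6.49, 6.47 and 6.54 on the AAV-V arrays, 8.99, 9.36 and 9.33 on the AAV-GP73 arrays and 7.57, 7.73 and 9.17 on the AAV-V HFD arrays. The AAV-V arrays lay within 1.05-fold of each other and below all others, whereas AAV-V HFD replicate 3 reached into the AAV-GP73 range. Fbp1 rose 6.62-fold in AAV-GP73 (log2 2.73 ± 0.38 SE, adjusted p = 0.000181). The rise in AAV-V HFD was 3.14-fold (log2 1.65 ± 0.38 SE, adjusted p = 0.00441). All 7 scalings called both rises, at 1.96 to 4.40 and 1.02 to 2.99 on the log2 scale. The difference between the 2 groups, 1.07 (95% interval 0.24 to 1.91), was not called (adjusted p = 0.181). Without AAV-V HFD replicate 3, the highest of its group, it was 1.58 (adjusted p = 0.0189), which is a description only.

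Pcx, at the entry of the route, was dim in AAV-V and even across the other arrays. The probe (mm9, chromosome 19, 4621610 to 4621669) gave 1.74, 4.81 and 3.31 in AAV-V, where only the second was well above background, 5.01, 5.45 and 5.25 on the AAV-GP73 arrays and 5.32, 5.28 and 5.29 on the AAV-V HFD arrays. All arrays of AAV-GP73 and AAV-V HFD exceeded all of AAV-V, by 0.20 at the least, and overlapped with each other. The fitted rise was 3.87-fold in AAV-GP73 (log2 1.95 ± 0.57 SE, adjusted p = 0.0113). It was 4.03-fold in AAV-V HFD (log2 2.01 ± 0.57 SE, adjusted p = 0.0119). With both undetected AAV-V arrays at their lowest detected signal the rises were 2.09-fold and 2.18-fold. The size rested on the AAV-V arrays, and the log2 values were 1.18 and 1.24 without AAV-V replicate 1 and 2.71 and 2.77 without replicate 2. Both were called under 6 of the 7 scalings, and normexp background correction turned them to -0.20 and -0.26. The direct difference was -0.06 (95% interval -1.31 to 1.19), wide enough to hold a change of 2-fold either way. By the methods' t-test neither rise passed.

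G6pc, the last enzyme of the pathway, was the only gluconeogenesis gene called between AAV-GP73 and AAV-V HFD. It entered the test only through AAV-GP73, the group where it was highest. The probe (mm9, chromosome 11, 101238947 to 101239006) was detected on all 3 AAV-GP73 arrays at 5.13, 4.77 and 4.83, and on 2 AAV-V HFD arrays at 3.13 and 2.99. The third AAV-V HFD array read 0.88 and the AAV-V arrays 3.61, 3.01 and 3.97, and those 4 values were not well above background. All AAV-GP73 arrays exceeded all others, and the undetected values set an upper limit only. With each AAV-V array set at the higher of its own value and its lowest detected signal, G6pc was at least 2.06-fold higher in AAV-GP73 (fitted log2 fold change 1.38 ± 0.51 SE, adjusted p = 0.0353). Normexp turned that value to -0.37, 4 of the 7 scalings called it, and it fell short of the call (adjusted p = 0.0600 to 0.114) when AAV-V replicate 1 or 2 or any AAV-GP73 array was left out. Against AAV-V HFD the fit gave a log2 difference of 2.58 ± 0.51 SE (adjusted p = 0.0250). With the undetected AAV-V HFD array at its lowest detected signal the difference was 1.94 (3.83-fold), and without that array, replicate 3, it was 1.85 (adjusted p = 0.0231). The call held under 4 of the 7 scalings, positive under all 7, and was lost when any AAV-GP73 array was left out (adjusted p = 0.0727 to 0.104). For AAV-V HFD against AAV-V no direction can be given. The fitted value was -1.20 (adjusted p = 0.0660), yet AAV-V HFD had 2 detected arrays where AAV-V had 0.

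Slc37a4, the glucose-6-phosphate transporter, was the only one of the 7 called lower, and its direction depended on the scaling. The brighter probe (mm9, chromosome 9, 44210978 to 44211037) gave 4.53, 3.42 and 4.36 in AAV-V, 3.17, 2.82 and 2.93 on the AAV-GP73 arrays and 3.83, 4.07 and 3.77 on the AAV-V HFD arrays. AAV-V replicate 2 was not well above background and the other 8 arrays were. AAV-GP73 lay below AAV-V HFD without overlap, and AAV-V and AAV-V HFD overlapped. The AAV-GP73 values were also below the 3 AAV-V values. The undetected AAV-V value of 3.42 set an upper limit only, with 3.87 the lowest detected signal of that array. A separation from AAV-V is therefore not established, and the fit below uses that value. The fitted change was 2.19-fold lower in AAV-GP73 (log2 -1.13 ± 0.32 SE, adjusted p = 0.00904), was called under 4 of the 7 scalings, and turned to 0.54 under spike-in scaling. Before scaling the processed signals were alike, between 4.99 and 11.5 in AAV-V and between 9.59 and 12.9 in AAV-GP73. Relative to the median of all genes the AAV-GP73 change was below 0 under all 7 scalings, from -1.82 to -0.30. In AAV-V HFD the change was -0.22 (95% interval -0.91 to 0.48, adjusted p = 0.586), with the sign turned under 2 scalings. Without AAV-V replicate 1 the lower call was lost, at -0.92.

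**Figure D2:**
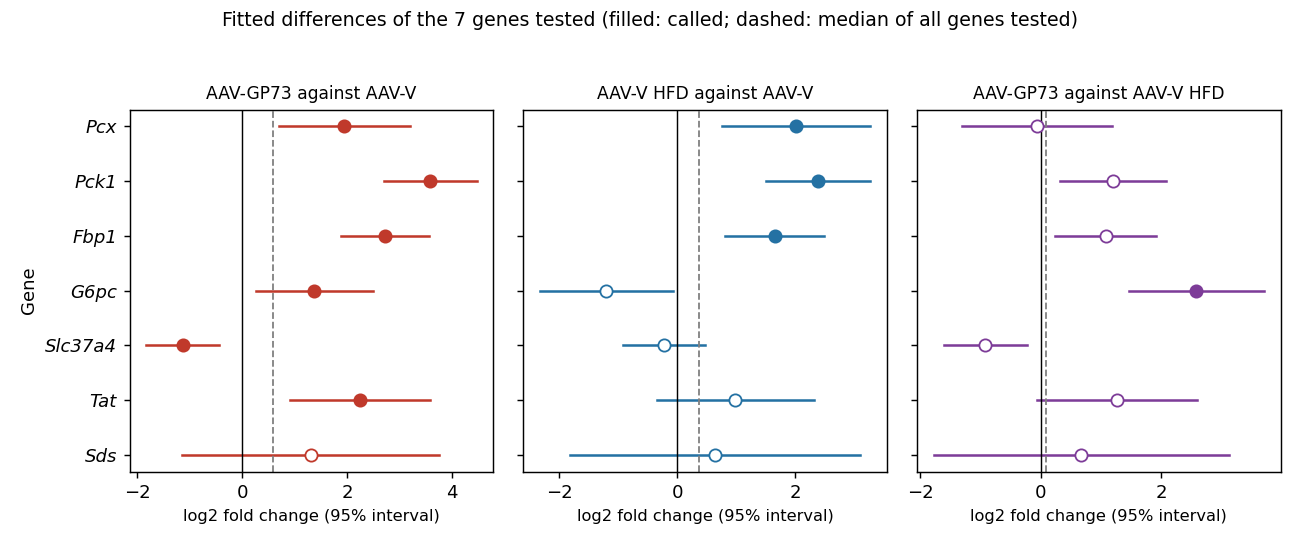
Log2 fold change (x axis) with its 95% interval from the limma fit for the 7 genes tested in each of the 3 comparisons. Filled points were called, the dashed line is the median of all 5761 genes tested, and G6pc alone is filled where AAV-GP73 is set against AAV-V HFD. Slc37a4 lies left of 0 in AAV-GP73 against AAV-V with the scaling shown and right of it with spike-in scaling.

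Tat and Sds bring amino acid carbon into the pathway, and both were uneven among the AAV-V HFD arrays. The Tat probe (mm9, chromosome 8, 112523207 to 112523266) read 4.49, 5.01 and 5.14 in AAV-V, 6.82, 7.53 and 7.04 on the AAV-GP73 arrays and 4.65, 5.27 and 7.68 on the AAV-V HFD arrays. All AAV-GP73 arrays exceeded all AAV-V arrays, and the AAV-V HFD arrays ran from within the AAV-V range to above the AAV-GP73 range. Tat rose 4.76-fold in AAV-GP73 (log2 2.25 ± 0.61 SE, adjusted p = 0.00750), positive under all 7 scalings and called under 6. In AAV-V HFD the value was 0.99 (95% interval -0.34 to 2.32, adjusted p = 0.188). Normexp turned it to -0.035, and without AAV-V HFD replicate 1, the lowest of its group, it was 1.59 (adjusted p = 0.0420). The difference between AAV-GP73 and AAV-V HFD, 1.26 (adjusted p = 0.340), became 2.17 (adjusted p = 0.0140) without AAV-V HFD replicate 3, the highest. Both values with an array left out are descriptions only.

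Sds had the largest SE of the 7, with undetected values included. The brighter probe (mm9, chromosome 5, 120933105 to 120933164) gave 2.55, 1.78 and 4.05 in AAV-V, all undetected, 3.80, 4.77 and 3.73 in AAV-GP73, all detected, and 3.70, 0.32 and 6.28 in AAV-V HFD, of which the second was undetected. The highest value of the 9 was thus on an AAV-V HFD array, and the undetected values have no order. The AAV-GP73 and AAV-V arrays overlapped, and no call was made between them (fitted log2 1.31 ± 1.12 SE, adjusted p = 0.321, and -0.55 under normexp). In AAV-V HFD the fitted value of 0.64 (adjusted p = 0.648) went to -0.79 without replicate 3 and to 2.20 without replicate 2.

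AAV-V HFD replicate 3 had the highest signal of its group for Pck1, Fbp1, Tat and Sds, and the lowest for G6pc and Slc37a4. Its distance from the next AAV-V HFD array was 1.03 for Pck1, 1.44 for Fbp1, 2.41 for Tat and 2.59 for Sds on the log2 scale. For G6pc replicate 3 was undetected and set an upper limit only. The lowest detected signal of that array was 2.81, against 2.99 for G6pc on the next array. Over the 7 genes the SD of the 3 arrays was between 0.18 and 0.58 in AAV-GP73 and between 0.02 and 2.99 in AAV-V HFD, where it was the larger for all but Pcx and Slc37a4. The SDs of G6pc and Sds in AAV-V HFD include undetected values. Replicate 3 was also the dimmest array of its group, with 8183 spots detected against 9617 and 9930, and the part of this in its values was not tested. When that array was left out, 4 genes were called higher in AAV-GP73 than in AAV-V HFD, namely Pck1, Fbp1, Tat and G6pc. Of all genes, 25 to 161 were called in this comparison when any 1 array was left out. The array stood out by these same genes, so the count of 4 is a description only.

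Ppargc1a, the coactivator of Pck1 and G6pc transcription, had 2 probes, and neither was detected on any of the 9 arrays. Its processed signals lay between 1.49 and 4.98. The low scaled values of this gene and of Pck2 in AAV-GP73 and AAV-V HFD are background values and carry no direction.

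**Figure D3:**
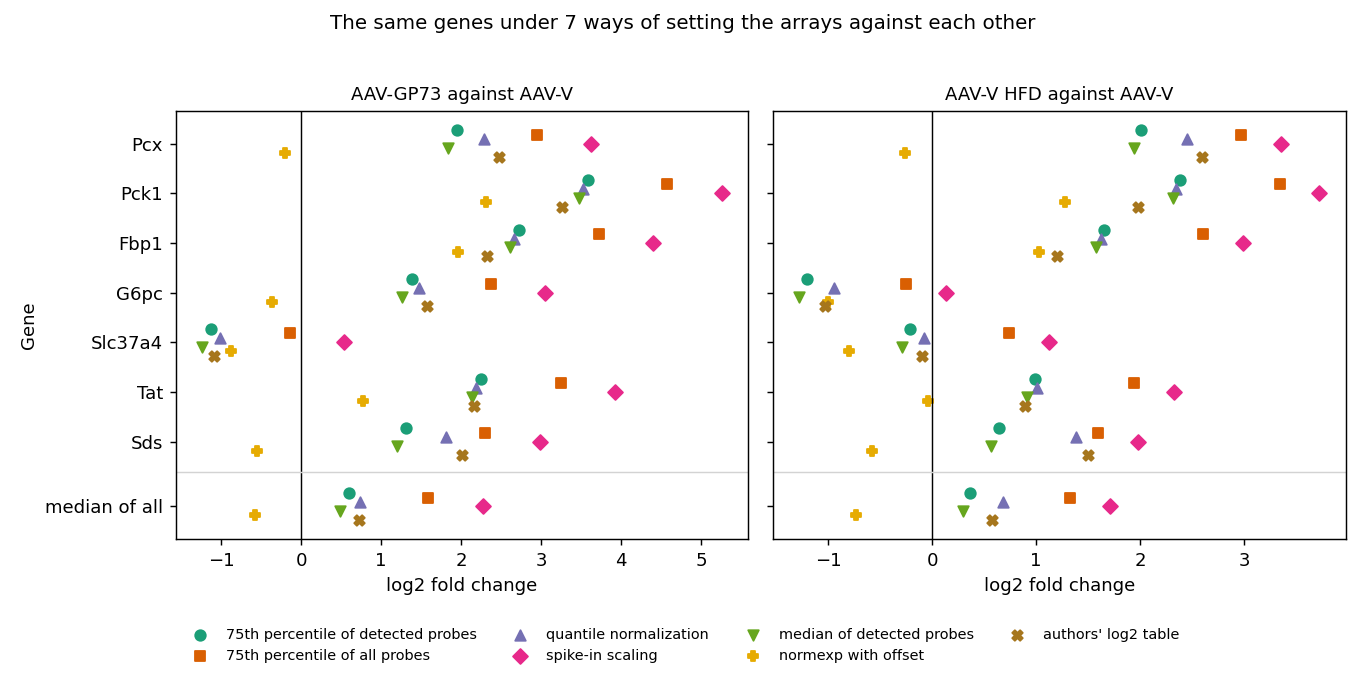
Log2 fold change (x axis) of the 7 genes tested, with the median of all genes in the bottom row, under 7 ways of making the arrays comparable, for AAV-GP73 and AAV-V HFD against AAV-V. Pck1 and Fbp1 stay right of 0 with every marker, whereas Pcx, G6pc and Sds cross 0 with normexp and Slc37a4 crosses it with spike-in scaling in AAV-GP73.

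Likeness of pattern was measured over the 9 arrays as the root mean square difference of the scaled log2 signals after each gene was centred on its mean, among genes detected on all 9 arrays. Fbp1 was the second nearest of 2426 genes to Pck1 (0.46), after Gm4737 (0.45) and before Scp2, a sterol carrier protein (0.47), where the median gene was at 1.69. Nearest to Fbp1 were Cbs, which makes cystathionine from serine and homocysteine (0.20), Agxt, a peroxisomal aminotransferase of glyoxylate (0.22), and Gm4737 (0.33). Cbs gave group means of 4.37 ± 0.20 in AAV-V, 7.08 ± 0.37 with GP73 and 6.18 ± 0.89 with HFD (SD, n = 3). Agxt gave 5.36 ± 0.11, 7.90 ± 0.46 and 7.06 ± 0.99 (SD, n = 3). G6pc was detected on 5 of the 9 arrays, so that its other values have no order and no nearest gene is given. The points share arrays and their scaling, so these distances are descriptions only.

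The reversible enzymes that gluconeogenesis shares with glycolysis were all tested, and 6 of 8 were higher and 1 lower in AAV-GP73, with a median of 1.26, where 33.2% of all genes were higher and 19.4% lower. In AAV-V HFD 3 were higher and 1 lower, where the shares were 24.8% and 18.2%. Under normexp 2 and 1 were higher, with 1 lower in each. Pgk1, a kinase of 3-phosphoglycerate, rose 3.33-fold in AAV-GP73 (adjusted p = 0.000641) and 2.43-fold in AAV-V HFD (adjusted p = 0.00538). Gapdh rose 2.57-fold (adjusted p = 0.00165) and 2.01-fold (adjusted p = 0.0115) in the same order, positive like Pgk1 under all 7 scalings. Pgam1, a mutase, was undetected in AAV-V and at least 2.33-fold higher with GP73 (adjusted p = 0.000144), with a negative sign under normexp. Tpi1, which interconverts the triose phosphates, moved the other way and was 4.53-fold lower in AAV-GP73 (adjusted p = 0.000128) and 3.48-fold lower in AAV-V HFD (adjusted p = 0.000660), negative under all 7 scalings.

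Genes specific to glycolysis or to its control were mostly dim. Of 8 listed, 3 were tested. Gckr, a regulatory protein of liver glycolysis, was detected on 1 AAV-V array and rose 2.77-fold in AAV-GP73 (adjusted p = 0.0126) and 3.28-fold in AAV-V HFD (adjusted p = 0.00727), with a negative sign under normexp in both. With the undetected AAV-V arrays at their lowest detected signal the rises were 2.22-fold and 2.63-fold. Pdha1, a subunit of pyruvate dehydrogenase, was undetected in AAV-V and not called in either group (adjusted p = 0.0571 and 0.0743).

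Supply of substrate was the list with the most genes called, 12 of 13 tested higher and 1 lower in AAV-GP73, whereas the HFD group had 9 higher and 1 lower. Of all genes 33.2% and 24.8% were higher. Under normexp both comparisons had 1 higher and 1 lower, with medians of -0.16 and -0.36. In AAV-GP73, 5 of the 12 were detected on all arrays of both groups and 5 on no AAV-V array. Ldha, a subunit of lactate dehydrogenase, rose 9.32-fold in AAV-GP73 (adjusted p = 6.26e-05) and 6.11-fold in AAV-V HFD (adjusted p = 0.000332), and was called under all 7 scalings in both. Gpd1, the cytosolic glycerol-3-phosphate dehydrogenase, rose 10.8-fold (adjusted p = 0.000191) and 7.12-fold (adjusted p = 0.00100), with 1 AAV-V array detected, and 8.04-fold and 5.30-fold with the other AAV-V arrays at their lowest detected signal. Mdh1, cytosolic malate dehydrogenase, rose 4.29-fold (adjusted p = 0.000467) and 3.57-fold (adjusted p = 0.00176). The Gyk probe, for glycerol kinase, was detected on all AAV-GP73 arrays and on none of either other group. It was at least 2.12-fold higher in AAV-GP73 than in AAV-V HFD (adjusted p = 0.0102), and the higher scaled background of the AAV-V arrays left no bound against them. Gyk entered the test only through AAV-GP73, and that p value uses background values of AAV-V HFD.

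Of the enzymes of amino acid breakdown known to respond to fasting hormones, 8 of 10 tested were higher with GP73 and 4 with HFD, with 0 lower, at medians of 1.81 and 0.61, beside 33.2% and 24.8% higher among all genes. Under normexp 1 and 0 were higher, at medians of 0.023 and -0.55. Of the 8, 3 were detected on no AAV-V array and 4 on all arrays of both groups, and with HFD 2 and 1 of the 4. Those undetected in AAV-V entered the test only through the other groups, so the lack of lower calls is not a result for them. Oat, ornithine aminotransferase, rose 19.6-fold (adjusted p = 7.88e-05) and 6.77-fold (adjusted p = 0.00103), with 1 AAV-V array detected. Fah, the last enzyme of tyrosine breakdown, was undetected in AAV-V and at least 2.21-fold and 1.51-fold higher (adjusted p = 0.000442 and 0.00291), and its sign turned under normexp. Hpd, which follows Tat in tyrosine breakdown, rose 3.86-fold in AAV-GP73 (adjusted p = 0.00509) and was at 1.67-fold in AAV-V HFD (adjusted p = 0.221). None of the 10 was called between AAV-GP73 and AAV-V HFD, where their median was 1.27.

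Glycogen handling and glucose export had 4 of 7 genes tested, all higher in AAV-GP73 and 3 higher in AAV-V HFD, with 33.2% and 24.8% of all genes higher, and normexp turned the sign of all 4 in both. Of the genes called higher, 3 of 4 and 3 of 3 in the same order were detected on no AAV-V array. They entered the test only through the other groups. Gys2, liver glycogen synthase, was undetected in AAV-V and at least 3.12-fold and 3.20-fold higher (adjusted p = 0.000722 and 0.00116). Ugp2, which makes UDP-glucose, was at least 1.80-fold and 1.93-fold higher (adjusted p = 0.000599 and 0.000886). Gbe1, the branching enzyme, was called higher in both (adjusted p = 0.00586 and 0.00143), with a bound of at least 1.21-fold in AAV-V HFD and none in AAV-GP73. Pygl, liver glycogen phosphorylase, rose 2.03-fold in AAV-GP73 (adjusted p = 0.0134). Slc2a2, the GLUT2 glucose carrier, was detected on no array, and neither were G6pc2, G6pc3 and Fbp2, isoforms of G6pc and Fbp1 used mainly outside the liver pathway.

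Among 17 regulators of transcription, 9 were tested, and 7 were higher with GP73 and 6 with HFD, with 0 lower, against 33.2% and 24.8% of all genes higher. Normexp left 1 and 0 higher, at medians of -0.33 and -0.63. Of the 7, 5 were detected on no AAV-V array and 1 on all arrays of both groups, and with HFD 4 and 1 of the 6. Genes undetected in AAV-V entered the test only through the other groups, so the lack of lower calls is not a result for them. Creb3l3, a liver factor activated by cleavage in the endoplasmic reticulum, was undetected in AAV-V and at least 3.76-fold higher with GP73 and 1.85-fold with HFD (adjusted p = 2.47e-05 and 0.000278), with a negative sign under normexp in AAV-V HFD. Hnf4a, a nuclear receptor of the hepatocyte, rose 5.48-fold (adjusted p = 0.000143) and 2.63-fold (adjusted p = 0.00444), positive under all 7 scalings. Klf15 was at least 1.65-fold and 1.12-fold higher (adjusted p = 0.00108 and 0.00846), and Esrra was called higher in both (adjusted p = 0.00506 and 0.0457) without a bound on its fold, with a negative sign under normexp for each. Foxo1, the insulin-sensitive factor, was at 0.52 on the log2 scale in AAV-GP73 (adjusted p = 0.285), and Creb1 and Crtc2 were not tested because no group had them detected on all its arrays.

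Of 12 genes of hormone signalling, 5 were tested, 4 of them higher with GP73 and 3 with HFD, where all genes had 33.2% and 24.8% higher. None of the 4 was detected on an AAV-V array, and each turned negative under normexp. Prkar1a, a regulatory subunit of protein kinase A, was at least 1.10-fold higher with GP73 (adjusted p = 0.000269), and Akt2, an insulin-signalling kinase, at least 1.04-fold (adjusted p = 0.00613). Prkaca, a catalytic subunit of protein kinase A, was called higher in both groups (adjusted p = 0.00116 and 0.00490) without a bound on its fold. Irs2, an insulin receptor substrate, was detected on all AAV-GP73 arrays and on none of either other group, and was at least 1.96-fold higher in AAV-GP73 than in AAV-V HFD (adjusted p = 0.00218). Irs2 entered the test only through AAV-GP73, and that p value uses background values of AAV-V HFD. Gcgr, the glucagon receptor, was at 0.02 in AAV-GP73 (adjusted p = 0.969) and 0.87 in AAV-V HFD (adjusted p = 0.161) on the log2 scale.

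**Figure D4:**
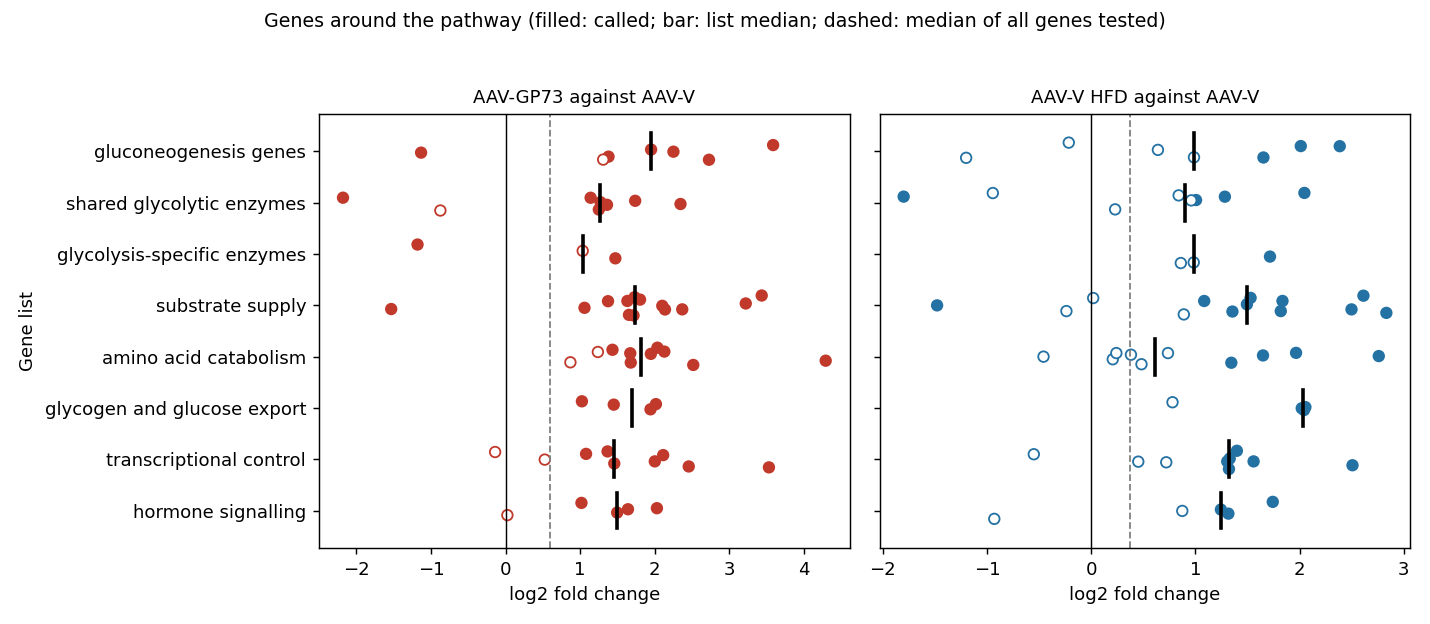
Log2 fold change (x axis) of each gene tested in the gluconeogenesis list and in 7 lists around it, for AAV-GP73 and AAV-V HFD against AAV-V, with filled points called, a black bar at each list's median and a dashed line at the median of all genes. In AAV-GP73 every list's median lies right of the dashed line with the scaling shown, from 1.03 for the genes specific to glycolysis to 1.95 for gluconeogenesis, and under normexp the medians of 6 of the 8 lists shown are negative.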

How the data were processed

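Liver RNA of 9 samples was measured on Agilent one-colour arrays with Cy3. The deposited intensity of each spot is the processed signal of Feature Extraction, version 12.0.3.1 per the file headers and 10.7 per the labels, which the authors' software detrended within each array without scaling between arrays. A deposited table gives log2 expression by probe name, with column medians between 0.799 and 0.801. Its columns follow the log2 processed signal of the same arrays (Pearson r of 0.988 to 1.000 across 2667 probes), and its normalization is not given in the sources used here. It served as an alternative.

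Groups follow the labels. Between 98 and 151 spots per array with outlier marks were left out, 0 were saturated, and spots of a probe were averaged. Each array's log2 signal was shifted to the same 75th percentile of the 2667 probes well above background on all 9 arrays. The brightest probe stood for each gene name. Genes that all arrays of any 1 group detected were fitted with limma 3.58.1 (lmFit, eBayes) in R 4.3.3 with data.table version 1.17.8, all 3 groups together, and p values were adjusted over all 5761 by Benjamini-Hochberg. Genes were called at an adjusted p under 0.05 and a fold change of at least 2. For a gene undetected in a group, the fit used that group's background values. Such a gene could enter the test only through the groups where it was detected. In a bound, an undetected array takes its lowest detected signal or its own value, whichever is higher. The same value for groups detected on some arrays was added after the data were seen. Normexp used an offset of 50 on the mean and local background signals. Probes are placed on mm9 as the files give them, and promoters are those of RefSeq on GRCm38.p6. Precision is limited by 3 arrays a group.

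The 9 genes and the lists were chosen with earlier results of these data known. Of each list, up to 4 genes with the smallest adjusted p in AAV-GP73 against AAV-V were named, except for results not reported here, with the isoforms G6pc2, G6pc3 and Fbp2, and for Pck1 and Fbp1 the 3 nearest genes in pattern (G6pc, with undetected arrays, was left out after its values were seen). Slc2a2, Foxo1, Creb1, Crtc2 and Gcgr were added after their values were seen. The fit was tested on simulated data. Alternatives were other scalings, background correction, filters, tests and thresholds, single probes, a replicate block and leaving out each array.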

Additional observations from a re-analysis of the deposited data

Results flagged for a closer look

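G6pc was the 1 gluconeogenesis gene whose difference from AAV-V was itself found to differ between AAV-GP73 and AAV-V HFD. That test is the direct comparison of both groups. G6pc entered it only through AAV-GP73, where all 3 arrays detected it, against 2 in AAV-V HFD and 0 in AAV-V. The fit therefore uses background values as well. The direct comparison gave a log2 difference of 2.58, higher in AAV-GP73 (limma, adjusted p = 0.0250). All 3 AAV-GP73 arrays lay above all 3 AAV-V HFD arrays, as they did for 15.2% of all genes. AAV-V HFD replicate 3 was not well above background, and without it the difference was 1.85 (adjusted p = 0.0231). With that array at its lowest detected signal the difference was 1.94. Leaving out each array in turn gave 1.85 to 2.98, and the call was lost without any 1 of the AAV-GP73 arrays. Over all 22 alternatives the difference ran from 0.63 to 2.98, and 8 of them lost the call. Over the alternatives that gave an adjusted p, that p ranged from 0.0147 to 0.283. Slide and diet cannot be told apart in this comparison. Groups of 3 are too small for a test of single outlying arrays.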

How the results depend on the processing

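The 7 scalings are that of the report, the 75th percentile of all probes, spike-in scaling, the median of detected probes, quantile normalization, normexp and the authors' table. Of the gluconeogenesis genes called in AAV-GP73 against AAV-V (6 in the report), normexp left 2 and detection on all arrays, which tests 3, left 3. For AAV-V HFD against AAV-V (3 in the report) there were 5 with spike-in scaling, 6 with no filter and 1 by the methods' t-test after adjustment. Between AAV-GP73 and AAV-V HFD (1 in the report) limma called 3 with spike-in scaling and 0 with quantile normalization, normexp, the authors' table, no filter and detection on all arrays, as did the adjusted methods' t-test. Unadjusted, the methods' t-test called 1, G6pc. Leaving out 1 array gave 4 to 6, 3 to 5 and 0 to 4 genes in these comparisons. There were 5 in the second without AAV-V HFD replicate 1 or replicate 2, and in the last 0 without any 1 of the AAV-GP73 arrays and 4 without AAV-V HFD replicate 3.

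Of all genes, 3029 were called in AAV-GP73 against AAV-V, and 850 with normexp, 29630 with no filter and 1181 with detection on all arrays. For AAV-V HFD against AAV-V, 2476 became 3853 with spike-in scaling, 897 with normexp, 27942 with no filter, 1017 with detection on all arrays and 1558 by the adjusted t-test. Between AAV-GP73 and AAV-V HFD, 145 became 33 with quantile normalization, 291 with spike-in scaling, 42 with normexp, 12 in the authors' table, 29 with no filter, 65 with detection on all arrays, and 327 and 13 by the t-test before and after adjustment. Leaving out 1 array gave 2781 to 3206, 2162 to 2754 and 25 to 161. With no filter most of the genes called were ones that no group detected on all its arrays. The cause of the other shifts was not tested.

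Log2 fold changes that turned sign in AAV-GP73 against AAV-V were G6pc (-0.37), Pcx (-0.20) and Sds (-0.55) with normexp, and Slc37a4 (0.54) with spike-in scaling. In AAV-V HFD against AAV-V they were Pcx (-0.26), Tat (-0.035) and Sds (-0.58) with normexp, G6pc (0.14) and Slc37a4 (1.12) with spike-in scaling, and Slc37a4 (0.74) with the 75th percentile of all probes. Between AAV-GP73 and AAV-V HFD, Pcx turned to 0.28 with spike-in scaling and 0.061 with normexp. Leaving out 1 array moved Pcx there from -0.17 to 0.053 and Sds from -0.89 to 2.09, and Sds in AAV-V HFD against AAV-V from -0.79 to 2.20. Pck1 and Fbp1 kept their direction in all comparisons and alternatives run.

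Arrays share replicate numbers across groups, but same-numbered arrays had residual correlations of -0.12 to 0.17, with 2 of 9 over 0.1, and were not treated as pairs. With the number as a replicate block the gluconeogenesis counts stayed at 6, 3 and 1, and the count of all genes between AAV-GP73 and AAV-V HFD went to 92. Signal over background limits G6pc, Pcx, Slc37a4 and Sds, each undetected on at least 1 array.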
